A study of Mus musculus with 2 samples.

Results

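The 9 genes Rag1, Rag2, Dntt, Ptcra, Cd4, Cd8a, Cd8b1, Themis and Tcf7 are recombination and lineage genes of immature thymocytes, the T cell precursors of the thymus. They were selected on measured values, because the same contrast of PDR with SKYD had already shown them to be higher in the SKYD library, and they are 9 of the 54532 genes in the deposited table. Their differences are therefore given as a description, with no test.

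RNA was sequenced from macrophages sorted on the surface proteins F4/80 and CD11b from the trypsin-digested aorta of dyslipidemic mice. Both groups were ApoE-/- mice on the C57BL/6J background with a labelled age of 6 weeks, and the cells of 5 mice were pooled into 1 library per group. Mice modelled for Phlegm-Dampness Retention (PDR) were fed a high-fat diet over 4 weeks. For Spleen and Kidney Yang Deficiency (SKYD), mice were given propylthiouracil, which blocks thyroid hormone synthesis, for 4 weeks at 10 mg/kg per day, followed by a high-fat diet over 2 weeks. Syndrome, drug, diet time and age at sampling cannot be told apart. Reads on genes summed to 23086889 for PDR and 25427863 for SKYD. Apoe, the gene disrupted in both groups, had 17336 reads in PDR and 3618 in SKYD, and values per gene do not show which exons were read.

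T cell precursors cut and rejoin the gene segments of the T cell receptor with an endonuclease made of the RAG1 and RAG2 proteins, while terminal deoxynucleotidyl transferase, encoded by Dntt, adds bases at the joins. A rearranged beta chain is first tested together with the invariant pre-T cell receptor alpha chain, encoded by Ptcra, after which the cells carry the CD4 and CD8 coreceptors together and are selected on their alpha-beta receptor. Rag1, Rag2, Dntt and Ptcra are silenced as T cells mature, whereas the coreceptors, Themis and Tcf7 stay active in mature T cells of various kinds, and macrophages are not known for using any of the recombination genes.

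All levels are FPKM (fragments on a gene scaled to its length and to the size of the library). Levels can be compared between genes only as far as the gene lengths used hold. Reads are the whole numbers recovered from these values. A fold is the FPKM of 1 library over that of the other, and its 95% confidence interval (CI) comes from exact Clopper-Pearson limits on how the reads of the gene split between the libraries. Intervals and floors cover counting error only, because each group had 1 library and no difference has a replicate check. A gene with 0 reads was set at a floor of 3 reads, so that its fold is a lower bound. In bulk RNA, fewer cells of a type and less RNA per cell cannot be told apart.

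The recombination genes were nearly absent from the PDR library and clearly present in the SKYD library. Rag1 (ENSMUSG00000061311, chr2:101638282-101649501 of GRCm38, minus strand) had 0 reads in PDR and 637 reads in SKYD, with an FPKM of 0 and 3.86, at least 199.5-fold higher in SKYD. Rag2 (ENSMUSG00000032864, chr2:101624718-101632529, plus strand) had 0 reads in PDR and 2262 reads in SKYD, an FPKM of 0 and 26.4, and was at least 709-fold higher in SKYD. A count of 0 allows up to 1.3e-05% of the PDR reads, which is an FPKM of 0.0193 for Rag1 and 0.0373 for Rag2. Dntt (ENSMUSG00000025014, chr19:41029275-41059523, plus strand) had 39 reads in PDR and 10953 in SKYD, an FPKM of 0.780 and 205.9. This is a fold of 264 (95% CI 193 to 371), and Dntt ranked 1 of the 10399 genes compared when ordered from the largest SKYD excess. Its interval does not reach down to the fold of any other of the 9 genes that had PDR reads.

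Among the protein-coding genes with 0 reads in PDR, Rag2 had the most SKYD reads, Rag1 was number 4 and Ptcra number 6. The libraries were not alike in their low end. In all, 1901 protein-coding genes had SKYD reads and no PDR read, against 365 with PDR reads and no SKYD read, and genes with 1 read numbered 715 in PDR and 1332 in SKYD. The highest count facing a 0 was 2262 in the first direction and 100, for Gzmm, in the other. The part of this unequal low end in the zeros of Rag1, Rag2 and Ptcra was not tested.

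Rag1 and Rag2 lie tail to tail on chromosome 2 with 5752 bases between them. Their levels in SKYD were unequal, and per length Rag2 was 6.85-fold above Rag1 (95% CI 6.27 to 7.50). In the GENCODE annotation, 80 of 6608 exon bases of Rag1 and 208 of 3424 exon bases of Rag2 overlap exons of B230118H07Rik, a gene on the minus strand that spans the locus. Reads in those stretches cannot be assigned with certainty. B230118H07Rik itself had an FPKM of 2.37 in PDR and 15.1 in SKYD, a fold of 6.39 (95% CI 5.57 to 7.34), so that it had reads in PDR where Rag1 and Rag2 had none.

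The sequences just upstream of the recombination genes and of Ptcra and Cd8a are shown because these genes were higher in the same library while their PDR levels ranged from 0 to several FPKM. RefSeq promoter entries (GRCm38.p6) matched 7 of the 9 genes by symbol, all but Cd4 and Cd8b1, with 9 windows in all because Themis and Tcf7 have 2 start sites each. Each line gives the 250 bases before the start site, 5′ to 3′ on the strand of the gene, and capitals mark every E-box, CANNTG, the core bound by basic helix-loop-helix factors such as the E proteins.
Rag1 (chr2:101649533-101649782, minus strand): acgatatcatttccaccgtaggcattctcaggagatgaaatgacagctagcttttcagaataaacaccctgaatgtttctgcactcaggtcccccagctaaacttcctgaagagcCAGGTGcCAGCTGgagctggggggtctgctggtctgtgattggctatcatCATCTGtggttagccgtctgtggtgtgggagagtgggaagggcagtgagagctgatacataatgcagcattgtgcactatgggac
Rag2 (chr2:101624462-101624711, plus strand): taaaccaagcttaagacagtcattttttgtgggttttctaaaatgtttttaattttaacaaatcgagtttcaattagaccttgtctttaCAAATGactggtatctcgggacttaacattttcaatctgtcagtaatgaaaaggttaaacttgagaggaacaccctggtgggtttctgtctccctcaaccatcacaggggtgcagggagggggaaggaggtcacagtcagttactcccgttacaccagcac
Dntt (chr19:41029025-41029274, plus strand): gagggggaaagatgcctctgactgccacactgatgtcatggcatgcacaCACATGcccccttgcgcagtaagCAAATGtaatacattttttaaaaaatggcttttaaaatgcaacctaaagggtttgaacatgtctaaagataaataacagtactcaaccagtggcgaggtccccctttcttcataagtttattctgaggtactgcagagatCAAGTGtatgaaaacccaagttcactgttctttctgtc
Ptcra (chr17:46763713-46763962, minus strand): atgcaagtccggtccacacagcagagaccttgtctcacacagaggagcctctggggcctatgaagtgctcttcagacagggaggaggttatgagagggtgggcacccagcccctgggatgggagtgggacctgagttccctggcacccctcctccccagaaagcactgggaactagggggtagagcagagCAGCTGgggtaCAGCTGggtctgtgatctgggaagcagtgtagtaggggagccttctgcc
Cd8a (chr6:71373177-71373426, plus strand): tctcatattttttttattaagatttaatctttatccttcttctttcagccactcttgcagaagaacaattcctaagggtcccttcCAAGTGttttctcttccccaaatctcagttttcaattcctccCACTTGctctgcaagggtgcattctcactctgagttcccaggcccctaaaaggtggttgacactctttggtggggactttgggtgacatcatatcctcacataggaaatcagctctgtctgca

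The E-box reads the same on both strands. It was found in 8 of the 9 windows, all but 1 of the Tcf7 windows, and in 66.2% of all 32851 RefSeq promoter windows of that length. The narrower form CAGCTG, which lies inside CANNTG, was found in 3 of the 9 (of Rag1, Ptcra and Tcf7) and in 13% of all windows. Upstream of Rag1 the E-boxes begin at -135, -128 and -85 from the start site, the first being CAGGTG and the second CAGCTG, with a base between them. Ptcra has CAGCTG at -60 and again at -49. CTTTGA, a core of the kind bound by the product of Tcf7 and by LEF1, was found in 0 of the 9 and in 13.8% of all windows. The same holds for its variant CTTTGT, found in 0 of the 9 and in 16.5% of all windows. TGTGGT, a RUNX core, was found in 1 of the 9, that of Rag1 (14% of all windows), and AGATAA, the core of GATA factors, in 1 of the 9, that of Dntt (9.99% of all windows). These last 4 motifs were searched on both strands. Each match describes letters in the window only.

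Ptcra, the gene of the pre-T cell receptor alpha chain, had no PDR read, like Rag1 and Rag2. Ptcra (ENSMUSG00000036858, chr17:46755663-46763712, minus strand) had 0 reads in PDR and 475 in SKYD, an FPKM of 0 and 14.8, and was at least 149-fold higher in SKYD. Themis (ENSMUSG00000049109, chr10:28668360-28883818, plus strand), which tunes receptor signals during selection, differed least of the 9. It had 247 reads in PDR and 1443 in SKYD, an FPKM of 0.900 and 4.94, a fold of 5.49 (95% CI 4.79 to 6.31). Themis, unlike Ptcra, was thus detected in PDR. The level of Ptcra in SKYD did not differ from that of Cd4 beyond counting error, with a ratio of 1.02 (95% CI 0.914 to 1.13).

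**Figure D1:**
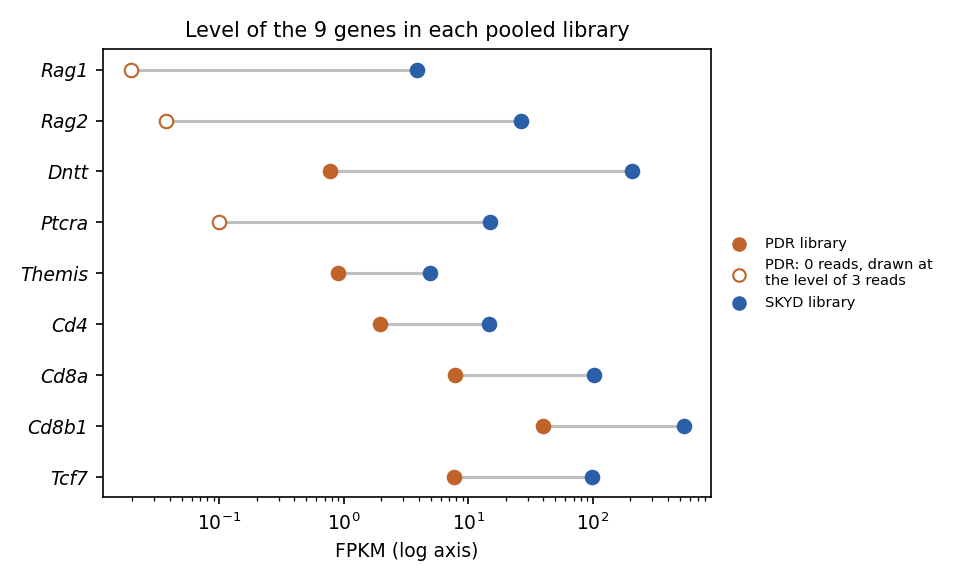
FPKM of each of the 9 genes (log axis) in the PDR library (orange) and the SKYD library (blue), 1 pooled library each, with open circles at the level of 3 reads for genes with 0 PDR reads. SKYD lies to the right for each gene, from 3.86 for Rag1 to 534.9 for Cd8b1.

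The coreceptor genes had reads in both libraries and higher levels in SKYD. Cd8b1 (ENSMUSG00000053044, chr6:71322788-71337494, plus strand), the CD8 beta chain, had 1383 reads in PDR and 19828 in SKYD, an FPKM of 39.7 and 534.9, a fold of 13.5 (95% CI 12.8 to 14.2). Cd8a (ENSMUSG00000053977, chr6:71373427-71379173, plus strand), the alpha chain, had 667 and 9354 reads, an FPKM of 7.81 and 102.9, a fold of 13.2 (95% CI 12.2 to 14.3). The chains form a dimer, and the ratio of their genes did not differ between the libraries beyond counting error. Per length, Cd8b1 was 5.09-fold above Cd8a in PDR (95% CI 4.63 to 5.59) and 5.20-fold in SKYD (95% CI 5.07 to 5.33). Cd4 (ENSMUSG00000023274, chr6:124864692-124888221, minus strand) had 183 reads in PDR and 1469 in SKYD, an FPKM of 1.93 and 14.6, a fold of 7.54 (95% CI 6.46 to 8.85). Cd4 was below the CD8 genes in both libraries, and Cd8a was 4.04-fold above it in PDR (95% CI 3.43 to 4.79) and 7.06-fold in SKYD (95% CI 6.68 to 7.46). The intervals of these ratios do not overlap.

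Tcf7 (ENSMUSG00000000782, chr11:52252371-52283014, minus strand), the gene of the transcription factor TCF1 that starts and maintains the T cell programme, had 475 reads in PDR and 6501 in SKYD. Its FPKM was 7.70 and 99.1, a fold of 12.9 (95% CI 11.7 to 14.2), and the intervals of Tcf7, Cd8a and Cd8b1 overlap one another. Lef1, the related factor (named after its values were seen), was 2.21-fold higher in SKYD (95% CI 1.92 to 2.55). Per length, Tcf7 was 5.70-fold above Lef1 in PDR (95% CI 4.91 to 6.63) and 33.2-fold above it in SKYD (95% CI 30.6 to 36.0).

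Ordered by FPKM in SKYD, the 9 genes ran Cd8b1, Dntt, Cd8a, Tcf7, Rag2, Ptcra, Cd4, Themis and Rag1. Neighbours in this order differed beyond counting error except Ptcra and Cd4, and the smallest ratio beyond it was that of Cd8a to Tcf7, 1.04 (95% CI 1.01 to 1.07). Counting error leaves out any error in the gene lengths that FPKM divides by. For Dntt that length was 2128 bases, against 2292 exon bases in the GENCODE annotation. A ratio as near 1 as that of Cd8a to Tcf7 is therefore not read as a difference in level. In PDR the order was Cd8b1, Cd8a, Tcf7, Cd4, Themis and Dntt, followed by the 3 genes at 0. There, Cd8a and Tcf7 did not differ beyond counting error (ratio 1.01, 95% CI 0.900 to 1.14), nor did Themis and Dntt (ratio 1.15, 95% CI 0.821 to 1.66). Cd8b1 was 50.9-fold above Dntt in PDR (95% CI 37.0 to 71.9) and 2.60-fold above it in SKYD (95% CI 2.54 to 2.66).

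Together the 9 genes had 2994 reads in PDR, 0.0130% of the library (95% CI 0.0125 to 0.0134), and 52922 reads in SKYD, 0.208% (95% CI 0.206 to 0.210). The fold of the summed reads per library size was 16.6 (95% CI 16.0 to 17.2). Folds use the library sizes behind the FPKM, 23487992 for PDR and 24993633 for SKYD. These are 1.02 and 0.983 times the reads on genes, which the percentages use, so the fold is not the ratio of the percentages. Cd8b1 gave 46.2% of the reads of the 9 genes in PDR and 37.5% in SKYD. Of 100-base windows of the transcripts of the 9 genes, 0 were shared with another gene for 7 of them, 3.24% for Rag2 (with B230118H07Rik) and 0.497% for Themis (with 4930519F09Rik).

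On the scale of log2(FPKM + 1), PDR minus SKYD, 9 of the 9 lay more than 2-fold higher in SKYD. Of the 10399 genes whose mean FPKM reached 1, 6.91% did so, and 7.38% lay more than 2-fold higher in PDR. Nothing is read from the count, since this contrast chose the genes. All 9 passed the filter on mean FPKM, 4 of them with an FPKM of at least 1 in PDR (Cd4, Cd8a, Cd8b1 and Tcf7) and 5 through their SKYD level alone. The differences were -6.86 for Dntt, -4.78 for Rag2, -3.98 for Ptcra, -3.72 for Cd8b1, -3.56 for Cd8a, -3.52 for Tcf7, -2.41 for Cd4, -2.28 for Rag1 and -1.64 for Themis. Their median was -3.56, beside -0.0035 over all genes compared. This scale understates the difference of low genes, which places Rag1, at 0 reads in PDR, next to Cd4. As a fold with the zeros at their floor, the median of the 9 was 13.5.

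**Figure D2:**
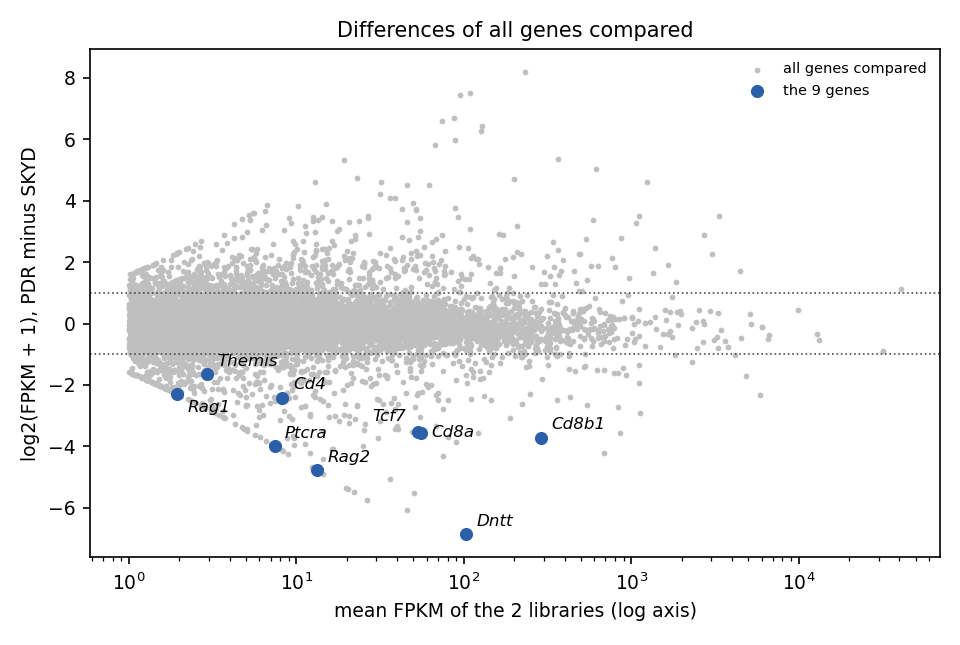
Difference in log2(FPKM + 1), PDR minus SKYD, against the mean FPKM of the libraries (log axis) for the 10399 genes compared (grey) and the 9 genes (blue), with dotted lines at 2-fold. The 9 genes lie under the lower line, from -1.64 for Themis to -6.86 for Dntt.

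Most compared genes of the machinery that RAG and terminal transferase work with lay within 2-fold on the scale of log2(FPKM + 1). So did most of all genes compared, of which 6.91% were more than 2-fold higher in SKYD and 7.38% in PDR. Of 16 genes for RAG cofactors and end joining, 12 were compared. On that scale 1 was more than 2-fold higher in SKYD and 0 were more than 2-fold higher in PDR, with a median difference of -0.32. By the ratio of FPKM, Xrcc5 (Ku80, named after its values were seen) was 2.06-fold higher in PDR (95% CI 1.80 to 2.37). Hmgb2 and Hmgb1, DNA-bending proteins that assist RAG cleavage, differed by -0.33 and -0.41. The exception on the scale of log2(FPKM + 1) was Xrcc6, the Ku70 subunit of the end-binding Ku dimer. It had an FPKM of 8.53 in PDR and 57.2 in SKYD, a fold of 6.70 (95% CI 6.25 to 7.20). The 4 genes under the filter, named after their values were seen, went both ways. Lig4, the ligase of end joining, had 4 reads in PDR and 137 in SKYD, a fold of 32.2 (95% CI 12.3 to 120), and Atm had 63 and 105 reads, a fold of 1.57 (95% CI 1.14 to 2.18). Prkdc, the catalytic subunit of the DNA-dependent protein kinase, had 197 and 67 reads and was 3.13-fold higher in PDR (95% CI 2.36 to 4.19). Trp53bp1 had 113 and 40 reads and was 3.01-fold higher in PDR (95% CI 2.08 to 4.43).

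Several genes of T cell receptor signalling were higher in SKYD as well, by less than most of the 9. Of 15 genes of receptor signalling, 15 were compared, 6 were more than 2-fold higher in SKYD and 0 in PDR, with a median of -0.83. The CD3 chains, which carry the receptor signal into the cell, were close together, at folds of 5.22 for Cd3d (95% CI 4.96 to 5.49), 5.47 for Cd3e (95% CI 4.97 to 6.03) and 5.69 for Cd3g (95% CI 5.45 to 5.93). Lat was 5.98-fold higher in SKYD, Cd247 4.15-fold and Lck 3.27-fold, whereas Ptpn6, a phosphatase that macrophages also use, was 1.63-fold higher in PDR. All 7 receptor constant genes were more than 2-fold higher in SKYD, with a median of -2.95 and summed FPKM of 468.4 and 3977. Trbc2 was the most abundant, with an FPKM of 261.4 in PDR and 1995 in SKYD.

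**Figure D3:**
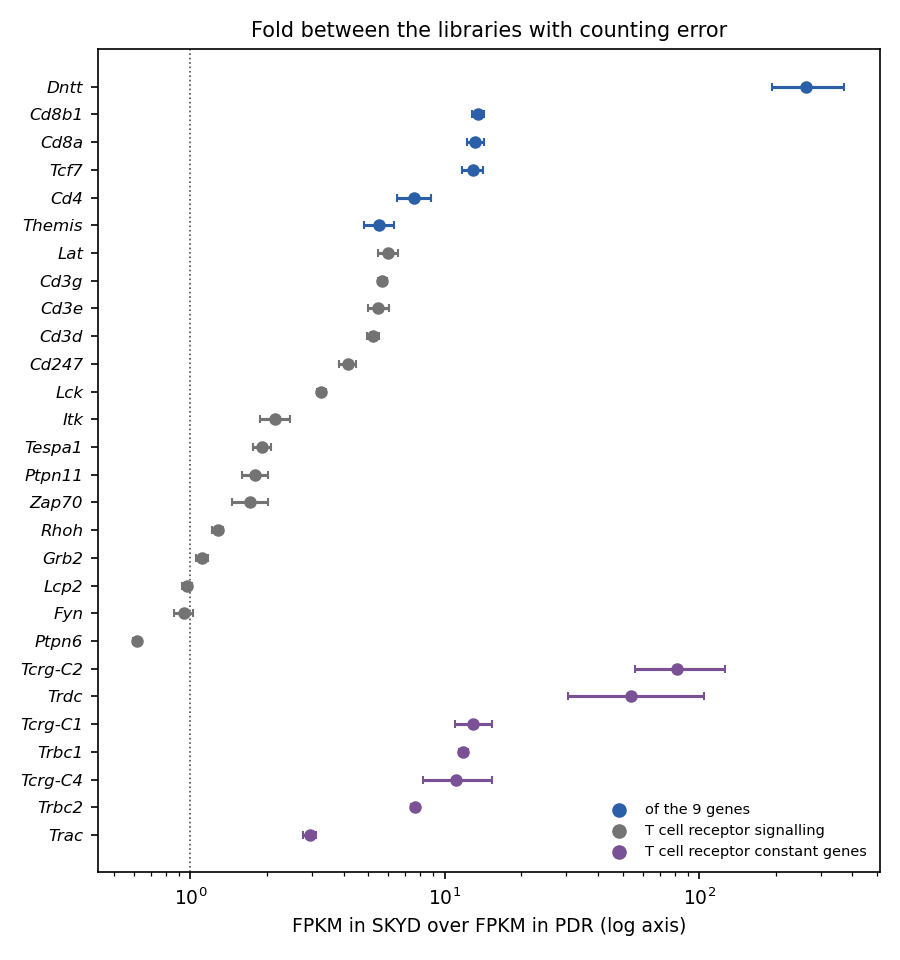
FPKM in SKYD over FPKM in PDR (log axis) for the 6 of the 9 genes with PDR reads (blue), the 15 receptor signalling genes (grey) and the 7 receptor constant genes (purple), with bars for the 95% counting interval. Dntt lies at 264, Cd8b1, Cd8a and Tcf7 lie near 13, and Themis lies at 5.49 beside the CD3 genes.

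Set against Cd3e as a measure of T lineage RNA within each library (a choice made after the values were seen), the 9 genes parted. The ratio of Themis to Cd3e was 0.174 in PDR (95% CI 0.148 to 0.203) and 0.174 in SKYD (95% CI 0.163 to 0.185). Cd4 over Cd3e was 0.373 in PDR (95% CI 0.313 to 0.442) and 0.514 in SKYD (95% CI 0.482 to 0.547). The intervals overlap for Themis and do not for Cd4. These ratios rest on Cd3e, and another T lineage gene would give others, since the fold was 2.94 for Trac, 3.27 for Lck and 11.8 for Trbc1 against 5.47 for Cd3e. Cd8a over Cd3e was 1.51 in PDR (95% CI 1.34 to 1.69) and 3.62 in SKYD (95% CI 3.48 to 3.78), and Cd8b1 over Cd3e was 7.66 and 18.8. Tcf7 over Cd3e was 1.49 in PDR (95% CI 1.31 to 1.69) and 3.49 in SKYD (95% CI 3.34 to 3.65). For Dntt the ratio was 0.150 in PDR (95% CI 0.106 to 0.209) and 7.25 in SKYD (95% CI 6.96 to 7.56), the widest step of the 6 genes with reads in both libraries.

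Other genes of the thymocyte stages were split. Of 13 genes of double positive thymocytes (cells with CD4 and CD8 together), 12 were compared, 7 were more than 2-fold higher in SKYD and 0 in PDR, with a median of -1.80. Arpp21 had 2 reads in PDR and 1254 in SKYD, a fold of 589 (95% CI 163 to 4871). Ccr9, the receptor for the thymic chemokine CCL25, had 131 and 4774 reads, a fold of 34.2 (95% CI 28.8 to 41.1). Arpp21 therefore resembled Rag2 in having almost no PDR read. The most abundant genes of the list went otherwise, as Ly6d had an FPKM of 1025 in PDR and 1045 in SKYD, and Cd24a had 254.8 and 157.3. Both are also used by B cells. Aqp11, Endou, Sh2d1a and Cd28 were also past 2-fold, at differences of -3.30, -3.48, -3.11 and -1.66.

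Most regulators of the T lineage differed less than Tcf7. Of 17 transcription factors, 16 were compared, 4 were more than 2-fold higher in SKYD and 0 in PDR, with a median of -0.68. The count of 4 depends on the scale, since it was 8 with a pseudocount of 0.1 or 0.01 and as a ratio of reads. It was 2 when a mean FPKM of 5, or a 4-fold difference on the scale of log2(FPKM + 1), was required. The 4 include Satb1, a chromatin organiser of thymocytes, at 15.3-fold (95% CI 13.7 to 17.2), Myb at 31.2-fold (95% CI 19.3 to 53.9) and Bcl11b, which holds T cell identity, at 4.58-fold (95% CI 3.82 to 5.51). Tcf3, which encodes the E proteins E12 and E47, differed by 0.35 and Id3, an inhibitor of E proteins, by -0.52. In the Notch pathway, which starts the T cell programme, 5 of 8 genes were compared. The Notch target Hes1 was more than 2-fold higher in SKYD (-1.02) and Dtx1 more than 2-fold higher in PDR (1.01), with a median of -0.36. Hes1 did not pass 4-fold. Of 8 early precursor genes, 5 were compared and 2 were more than 2-fold higher in SKYD, namely Gfi1 (-1.68) and Cd34 (-1.02), with a median of -0.12. Neither was counted when a mean FPKM of 5, or a 4-fold difference on the scale of log2(FPKM + 1), was required. By the ratio of FPKM, Gfi1 was 8.55-fold higher in SKYD (95% CI 5.89 to 12.8) and Cd34 5.07-fold (95% CI 3.82 to 6.83).

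**Figure D4:**
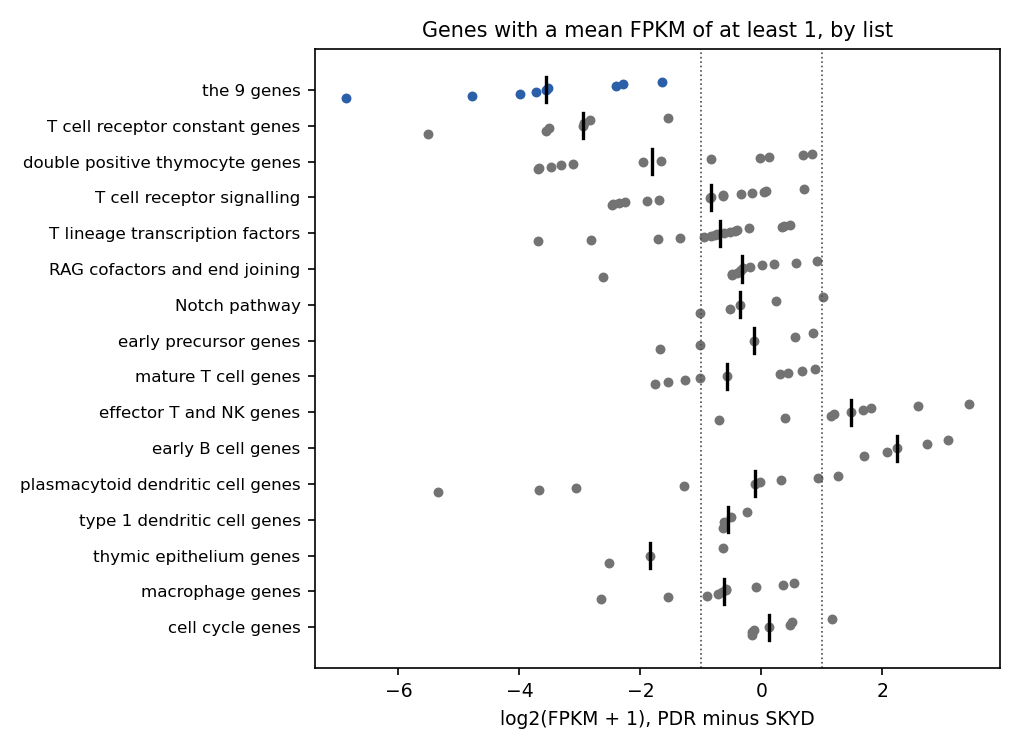
Difference in log2(FPKM + 1), PDR minus SKYD, of each gene whose mean FPKM reached 1 in the 9 genes (blue) and 15 lists (grey), with black bars at the medians and dotted lines at 2-fold. The median is -3.56 for the 9 genes, -2.95 for the receptor constant genes and 1.48 for effector T and NK genes.

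Lists of later T cell states had other medians than the 9. Of 9 mature T cell genes, 4 were more than 2-fold higher in SKYD and 0 in PDR, with a median of -0.56. They were Cd27 (-1.76), Cd5 (-1.54), Klf2 (-1.26) and Cd6 (-1.02), of which 0 passed 4-fold, while Cd2, the most abundant of the list, differed by 0.30. Of 11 effector T and NK genes, 9 were compared, 0 were more than 2-fold higher in SKYD and 7 in PDR, with a median of 1.48. Gzmb, the granzyme B gene, had an FPKM of 101.4 in PDR and 8.53 in SKYD, and Tbx21, the gene of the factor T-bet, had 6.37 and 0.225. Summed FPKM of the list was 637.9 in PDR and 243.2 in SKYD, opposite in direction to the coreceptor genes.

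B cell precursors also use Rag1, Rag2 and Dntt. Of 10 early B cell genes, 5 were compared and 5 were more than 2-fold higher in PDR. The median difference was 2.25, and summed FPKM was 1524 in PDR and 367.3 in SKYD. Cd79b was the most abundant, with an FPKM of 802.1 and 168.1. The genes of the surrogate light chain, which define B cell precursors, were at or near 0. Vpreb1 had 2 reads in PDR and 24 in SKYD, an FPKM of 0.0710 and 0.801. Igll1 had 0 and 15 reads, an FPKM of 0 and 0.277, and Vpreb2 had 0 reads in both. The part of B cell precursors in the levels of Rag1, Rag2 and Dntt was not tested.

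Plasmacytoid dendritic cells can also transcribe Ptcra and Dntt. Of 10 genes of these cells, 9 were compared, 4 were more than 2-fold higher in SKYD and 1 in PDR, with a median of -0.10 and, with the zeros at their floor, a median fold of 1.07. Their summed FPKM was 1263 in PDR and 1349 in SKYD, most of it from Ly6d. Siglech, a surface marker of these cells, had 39 reads in PDR and 964 in SKYD, a fold of 23.2 (95% CI 16.9 to 32.9), and Klk1 had 0 and 1067. Cox6a2 (-1.28) and Ccr9 were the others, and Irf8 was higher in PDR (1.27). By any margin, 6 of the 9 compared were higher in SKYD and 3 in PDR. Besides Irf8 these were Spib, 2.22-fold higher in PDR by the ratio of FPKM (95% CI 1.89 to 2.62), and Tcf4, 1.51-fold (95% CI 1.365 to 1.67). Both were named after their values were seen. The part of these cells in the levels of Ptcra and Dntt was not tested. Of 7 genes of type 1 dendritic cells, 4 were compared and 0 were past 2-fold either way on the scale of log2(FPKM + 1), with a median of -0.55, summed FPKM of 19.3 and 28.9, and Batf3 as the most abundant. That count depends on the scale, since 1 was higher in SKYD with a pseudocount of 0.1 or 0.01 and as a ratio of reads, and the fold of Xcr1 (named after its values were seen) was 2.22 (95% CI 1.72 to 2.88).

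The stroma of the thymus was looked for in the same way. Of 10 thymic epithelium genes, summed FPKM was 5.50 in PDR and 26.1 in SKYD, and the most abundant was Krt8, with 4.26 and 17.8. Foxn1 and Psmb11, which define thymic epithelium, had 0 reads in both libraries, as did Dll4, a Notch ligand that endothelium also uses. Krt14, Tbata, Krt5 and Aire had 0 reads in PDR, and 209, 41, 29 and 7 reads in SKYD. Of the 3 genes compared, 2 were more than 2-fold higher in SKYD, with a median of -1.84 and, with the zero at its floor, a median fold of 4.18. The count was 1 when a mean FPKM of 5 or a 4-fold difference was required. It was 3 with a pseudocount of 0.1 or 0.01 and as a ratio of reads. The gene added there was Ccl25, which encodes CCL25. It had 145 reads in PDR and 341 in SKYD, a fold of 2.21 (CI 1.815 to 2.703). The part of thymic epithelium in the levels of the 9 genes was not tested.

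The sort was for macrophages, whose genes were detected in both libraries. Of 10 macrophage genes, 10 were compared, 2 were more than 2-fold higher in SKYD, among them Cd14 (-2.65), and 0 in PDR, with a median of -0.61, and 1 was more than 4-fold higher in SKYD. Their summed FPKM was 22950 in PDR and 43060 in SKYD. Lyz2 was the most abundant, with an FPKM of 22220 in PDR and 41340 in SKYD, and Cd68 had 259.2 and 388.0. By any margin, 8 of the 10 were higher in SKYD and 2 in PDR. The 2, named after their values were seen, were Csf1r, 1.28-fold higher in PDR (95% CI 1.24 to 1.33), and Fcgr1, 1.47-fold (95% CI 1.39 to 1.55). Of the sorted markers, Adgre1 (F4/80) had an FPKM of 87.3 in PDR and 93.3 in SKYD, a fold of 1.07 (95% CI 1.03 to 1.10). Itgam (CD11b) had 8.84 and 14.4, a fold of 1.625 (95% CI 1.504 to 1.755). In SKYD, Cd8b1, Dntt, Cd8a and Tcf7 each exceeded Adgre1 per length. Of 7 cell cycle genes, 7 were compared, 0 were more than 2-fold higher in SKYD and 1 in PDR (Ccnb1, at 1.16), with a median of 0.12 and Ccnb2 (-0.13) as the most abundant.

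By position, the nearest protein-coding genes on each side of the 9, with those that overlap them, were 15 genes outside the 9. Of these, 9 were compared, 4 were more than 2-fold higher in SKYD and 1 in PDR. Rmnd5a, 9.46 kb beyond Cd8a, had 62 reads in PDR and 2918 in SKYD, a fold of 44.2 (95% CI 34.4 to 57.8), which is above that of either CD8 gene. Smyd1, 554 bases from Cd8b1 on the other side, had 0 and 12 reads. The other genes higher in SKYD were B230118H07Rik, Skp1a next to Tcf7 (-1.08) and Gm10800, which lies 2960 kb from Rag2 (-3.03). Traf6, 28.9 kb beyond Rag1, differed by 0.32. Blnk, a B cell adaptor 34.7 kb from Dntt, was 4.84-fold higher in PDR, and Opalin, 2950 bases beyond Dntt, had 0 reads in both libraries. The other neighbours of Ptcra and Tcf7, Cnpy3, 2310039H08Rik and Vdac1, lay within 2-fold. The 6 genes under the filter include the neighbours of Cd4 and of Themis.

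With 2 libraries, the likeness of a gene to the 9 is the size of 1 difference. Outside the 9, the 10 protein-coding genes with the lowest difference were Klk1 (-5.34), Scgb1a1 (-4.78), Gm525 (-4.41), Ldhb (-4.32), Cd209e (-4.23), Mt1 (-4.22), Trat1 (-4.09), Chrna9 (-3.95), Ccl24 (-3.87) and Mt2 (-3.72). They include Trat1, a T cell receptor adaptor, at a fold of 34.4 (95% CI 28.2 to 42.3), and genes of other kinds, such as the metallothioneins Mt1 and Mt2. The 5 protein-coding genes nearest the median of the 9 were Ccl17 (-3.57), Endou (-3.48), Ccr9 (-3.67), Cxcl13 (-3.45) and Bpifa1 (-3.44). Receptor constant genes, which are not counted as protein-coding, could lie nearer, as Trbc1 did (-3.56).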

How the data were processed

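RNA of 2 pooled libraries was analysed. The authors aligned paired reads with TopHat 2.0.9 and Bowtie2 2.0.6, counted them with HTSeq 0.6.1 and deposited FPKM per gene. Whether strand was used in counting is not given in the sources used here. The submitters' notes name mm9, but the deposited positions are those of GRCm38: 98.3% of the 54409 genes shared with GENCODE vM21 have the same start and end.

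To recover reads, FPKM was multiplied by gene length and divided by the worth of 1 read, fitted to the lowest values, and 100% of the values above 0 (17738 in PDR, 20499 in SKYD) were whole within 0.1. Genes whose mean FPKM reached 1 were compared on the scale of log2(FPKM + 1), counting those past 2-fold. With 1 library per group, no p-value was computed. The 9 genes and the gene lists were chosen with earlier results of these data known. Named genes were the 9, the 3 most abundant of each list, those past 2-fold, and the 10 and 5 most alike; neighbours were taken by position. Some genes of the lists are not reported here. Alternatives were pseudocounts of 0.1 and 0.01, no filter, a mean FPKM of at least 5, TPM, centring, protein-coding genes, 4-fold, and a ratio of reads. Steps were tested on simulated data (matplotlib 3.10.9, scipy 1.17.1, pandas 2.3.3, numpy 2.4.6, Python 3.11.15).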

Additional observations from a re-analysis of the deposited data

How the results depend on the processing

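Of the 9 alternatives, 7 left 9 of 9 past 2-fold in SKYD. The count was 7 with a mean FPKM of at least 5, which drops Rag1 and Themis. It was 8 at 4-fold on the scale of log2(FPKM + 1), which drops Themis (-1.64, at a fold of 5.49). Each of the 70 differences of single genes recomputed was below -1, from -11.37 to -1.64. The median of the 9 was -3.75 with a pseudocount of 0.1, -3.75 with 0.01, -3.72 with a mean FPKM of at least 5 and -3.70 as a ratio of reads with counts under 3 set to 3. Of all genes, 373 were more than 2-fold higher in SKYD and 464 in PDR with a mean FPKM of at least 5, where fewer genes were compared, and 216 and 194 passed 4-fold. Among protein-coding genes, 473 were more than 2-fold higher in SKYD, and by the ratio of reads 1161 were so in PDR. For the lists, only counts of genes higher in SKYD were recomputed, and counts of genes higher in PDR were not. Of the 135 counts recomputed for the lists, 119 stayed within 1.5 times. Those that moved were of T lineage transcription factors (from 4 to 8 or 2), type 1 dendritic cell genes (from 0 to 1 with either pseudocount and as a ratio of reads), early precursor genes (from 2 to 0) and thymic epithelium genes (from 2 to 1), both with a mean FPKM of at least 5 and at 4-fold, and, at 4-fold alone, mature T cell genes (from 4 to 0), the Notch pathway (from 1 to 0) and macrophage genes (from 2 to 1). The receptor constant genes leave the comparison when it is limited to protein-coding genes. No paired analysis was possible because each group had 1 library, and no library could be left out. Depth limits what is known of Rag1, Rag2 and Ptcra in PDR, where 0 reads give only an upper limit.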

Other observations

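Partners that work as a pair did not always keep their proportion, unlike the CD8 chains in these libraries. Per length, Xrcc6 (Ku70) was 0.834 of Xrcc5 (Ku80) in PDR (95% CI 0.752 to 0.926) and 11.5-fold above it in SKYD (95% CI 10.3 to 12.9). Xrcc5 had 614 reads in PDR and 317 in SKYD and was named after its values were seen. Among the receptor constant genes, Trac (alpha chain) had the smallest fold, 2.94 (95% CI 2.77 to 3.13), against 11.8 for Trbc1 (95% CI 11.4 to 12.4), 81.9 for Tcrg-C2 (95% CI 55.8 to 126) and 53.7 for Trdc (95% CI 30.6 to 104). Per length, Trbc2 was 4.11-fold above Trac in PDR (95% CI 3.86 to 4.37) and 10.6-fold in SKYD (95% CI 10.3 to 11.0).

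Of the protein-coding genes named above as most like the 9 in their difference, 4 had at most 1 read in PDR, a limit set after their values were seen. Scgb1a1, the club cell secretoglobin, had 0 reads in PDR and 316 in SKYD, and was at least 99.0-fold higher in SKYD. Bpifa1, a secreted protein of the upper airway, had 1 and 391 reads, a fold of 367 (95% CI 65.6 to 14550). Klk1, a glandular kallikrein that is also in the list of plasmacytoid dendritic cell genes, had 0 and 1067 reads and was at least 334-fold higher in SKYD. Cd209e, a C-type lectin gene, had 0 and 801 reads and was at least 251-fold higher in SKYD.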
